A study of Homo sapiens with 14 samples.

Results

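Of the 35287 peaks in the deposited ZNF143 peak list made after dTAG-V1, 503 lay in exons and were called only after dTAG-V1. These members were chosen by the peak calls themselves. A member had no 1 bp overlap with any of the 20429 peaks of the untreated list, its centre lay outside every window around a gene start (2 kb on the upstream side, 1 kb on the other), and its centre lay in an exon of the Ensembl canonical transcript of a protein-coding gene. Of these members, 156 were in coding parts, 328 in 3′ untranslated parts and 19 in 5′ untranslated parts, in 494 genes. The centre of 13 members lay in exons of more than 1 gene.

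The peaks came from ChIP-seq with the Proteintech anti-ZNF143 antibody in HEK293T cells, a human embryonic kidney line, in which the endogenous ZNF143 carried the FKBP12F36V degron. The labels name 1 clone, so clonal effects cannot be told apart from those of the tag. The 4 untreated samples and the 4 samples given 0.5 µM dTAG-V1 for 30 min all carried the tag, and dTAG-V1 is a small molecule that directs tagged proteins to degradation. The labels call the control samples untreated, and the study's methods state that the control had no treatment. The peak names of the control list say DMSO, so whether these samples had vehicle is not settled. Each condition had 1 list, with no values per sample, so a peak missing from a list means only that it was not called there. How the replicates were combined into each list is not stated. The study's methods ask for a peak in all 4 untreated replicates but in at least 1 of the 4 dTAG-V1 replicates, a stricter rule for untreated cells, and whether the deposited lists passed through it is not stated. If they did, the rule's part in which peaks are found only with dTAG-V1 cannot be told apart from that of the treatment. The 6 CTCF ChIP-seq samples of the series were not analysed here. The study reported that the Proteintech antibody also recognizes CTCF. It also reported that the signal of this antibody at CTCF sites rose after ZNF143 depletion. Which protein a given peak reflects was not tested here.

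ZNF143 is a zinc finger transcription factor that binds the SBS motifs, SBS1 and SBS2, which lie mostly at gene starts. CTCF is another zinc finger protein, known as an insulator that stops cohesin and anchors chromatin loops, and it binds a long, asymmetric motif between genes, in introns and also in exons. Coding DNA under a factor must keep both a protein sequence and a binding site, whereas untranslated exons carry no codons.

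The sequences below were read from hg38 at the best motif hits of the members with the highest peak scores, because the motif content was not used to choose the members. Each is written 5′ to 3′ on the strand of the motif. Capitals mark bases equal to the most frequent base of the learned matrix at positions where that base held at least 50% of the sites. The first set holds the 6 highest-scoring coding members with a hit of the CTCF matrix.
MYO7A: ctaCCAgcAGGtGGtgCga
HIP1R: tcgCCACtAGGGGGCagcc
NTNG1: acaaCACtAGaGGGCagca
SPI1: ctaCCAgaAGatGGCgCgc
PARP16: ttcCCACtAGaGGGCcCct
HDAC9: ttgCCACtAGaGGGCgCtc
The second set holds the CTCF hits of the 5 highest-scoring members in untranslated parts.
NOX5: tgcCCACgAGaGGGCgCtg
TGFBR2: tcaCCACtAGaGGtCaatg
TMC6: tggCCAgcAGaGGGCgCcc
MPI: ttaCCAgcAGaGGGagCta
SKAP2: aggCCAgtAGatGGCagca
The third set holds the best SBS hits of the 3 highest-scoring coding members with such a hit, to show how far they depart from the SBS matrices.
CELSR1: ccTCCCgcagctCcCTGCt
ACP3: AtTAaATTTCCCAtacgcC
TRAPPC8: tcaCCCAGccacCtCaGCc
These are hits, so their match to the matrix was fixed by the threshold. The hit of PARP16 lay outside the exon and that of HIP1R crossed an exon edge. The SBS sequences of CELSR1 and TRAPPC8 matched SBS1 and that of ACP3 matched SBS2, with p-values of 6.15e-06, 4.25e-06 and 9.24e-06 for the match to the matrix.

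Among all peaks of the dTAG-V1 list, 57.8% had no untreated overlap. Among the 772 exonic peaks of that list outside the windows, the share was 65.2%, and since the rule used this overlap nothing is read from it. By kind, 156 of 242 coding peaks, 328 of 456 peaks in 3′ untranslated parts and 19 of 74 peaks in 5′ untranslated parts were only in the dTAG-V1 list. In the other direction, 114 of the 420 exonic peaks of the untreated list had no overlap with the dTAG-V1 list.

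Per megabase of sequence outside the windows, members numbered 5.37 in coding sequence, 10.7 in 3′ untranslated parts and 18.4 in 5′ untranslated parts, against 7.38 intronic peaks found only with dTAG-V1 per megabase of intron. The coding density was 0.728 times the intronic one, with a counting interval of 0.621 to 0.853. With the summit in place of the centre the ratio was 0.833, with an interval of 0.718 to 0.966. The same coding to intron ratio was 0.849 for shared peaks and 0.917 for peaks found only in untreated cells. Hits of the CTCF matrix were 2.99 times as dense in coding sequence as in introns. The densities of members count peaks chosen by the call, so they are given as a description.

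The deposited peak score was a rescaled q-value and the fold enrichment came from the peak caller. Both came from the call that chose the members and are given as a description. The median score was 88 for coding members, with a range of 23 to 353, and the median fold enrichment was 3.03. In 3′ untranslated parts the median score was 94, with a range of 20 to 425. In 5′ untranslated parts the median was 83, with a range of 24 to 230. These lie low in the list, whose median score was 114 and highest score 151013. Of 10 equal groups of the list by score, the highest held no member and the lowest held 78. The coding peaks shared with the untreated list had a median score of 169, and the intronic peaks found only with dTAG-V1 had one of 80, below that of the members.

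Hits of the CTCF matrix were frequent in the members. At a hit threshold of p 1e-05, 101 of 156 coding members had one, a share of 64.7% with a 95% Wilson interval of 57.0 to 71.8%. In 3′ untranslated parts the share was 196 of 328 members, or 59.8%, with an interval of 54.4 to 64.9%. In 5′ untranslated parts it was 6 of 19 members, or 31.6%, and the interval of 15.4 to 54.0% was wide. All intervals cover counting error only, and peaks are not replicates of the treatment. For comparison, 6.58% of 28747 coding windows of 333 bp outside all peaks and 3.62% of 31188 untranslated windows of 353 bp held a CTCF hit. Among 20450 intronic windows of 333 bp the share was 2.24%.

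The coding members held a CTCF hit more often than the intronic peaks found only with dTAG-V1, of which 3581 of 7621, or 47.0%, held one. The difference was 17.8 percentage points, with a 95% Newcombe interval of 9.91 to 24.9. On the even-numbered autosomes and X, from which no matrix was learned, the difference was 9.97 points and its interval of -1.001 to 20.3 held 0. Windows outside peaks also held a CTCF hit more often in coding than in intronic sequence, and the part of this in the difference was not tested. Distal peaks, outside protein-coding genes and promoter windows, had a share of 52.2% when found only with dTAG-V1. The coding members were 12.5 points above these distal peaks, with an interval of 4.70 to 19.7. No alternative setting was run for this distal comparison. Members in all untranslated parts, with a share of 58.2%, were 11.2 points above the intronic peaks, with an interval of 5.85 to 16.4. On the even-numbered autosomes and X this became 5.57 points, with an interval of -2.13 to 13.2. This untranslated comparison was chosen after the data were seen. The coding share minus that of members in untranslated parts was 6.53 points, and its interval of -2.75 to 15.3 held 0. With hits at p 5e-05 it was 10.1 points, and the interval of 1.26 to 18.2 did not.

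Against the 86 coding peaks shared with the untreated list, 40 of which held a CTCF hit, the coding members were 18.2 points higher, with an interval of 5.20 to 30.6. This difference lost its call under 3 alternatives. It was 13.5 points, from -0.248 to 26.9, when shared peaks had to overlap by 50% of each peak. It was 6.79 points, from -12.2 to 25.4, on the even-numbered autosomes and X. With a fixed pattern in place of the matrix it was 4.04 points, from -4.77 to 11.4. In untranslated parts, the members were 13.95 points above the 183 shared peaks, with an interval of 5.01 to 22.6. No alternative setting was run for this untranslated comparison.

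**Figure D1:**
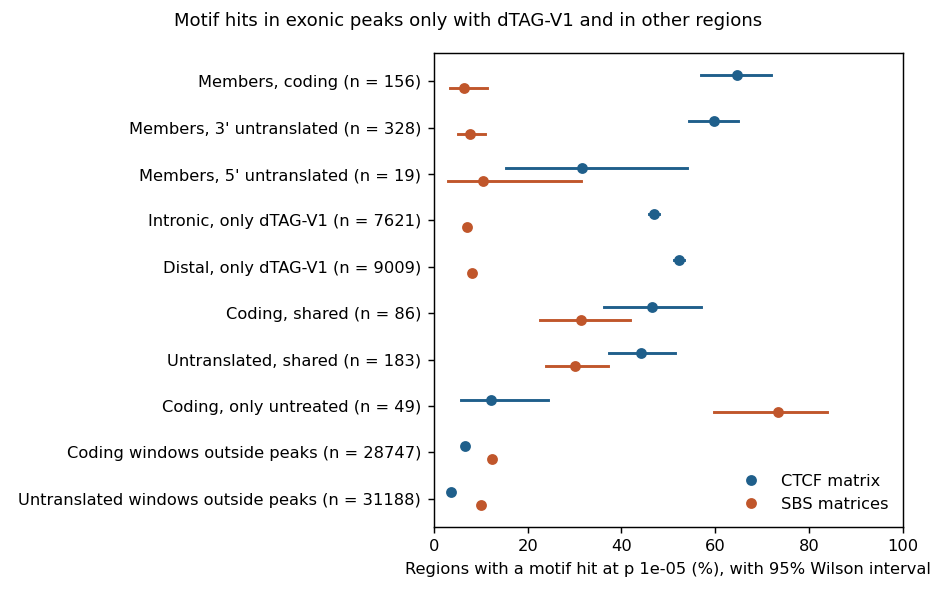
Share of regions with a hit of the CTCF matrix (blue) and of either SBS matrix (orange) at p 1e-05, in percent on the horizontal axis, with 95% Wilson intervals; each row is a class of peaks or of windows outside peaks with its number. Coding members (64.7%) and members in 3′ untranslated parts (59.8%) have the highest CTCF shares shown, and coding peaks found only in untreated cells have the highest SBS share (73.5%).

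SBS hits were few in the members. They were found in 10 of 156 coding members, or 6.41%, with an interval of 3.52 to 11.4% (3.85% within 100 bp of the summit), and in 27 of 347 members in untranslated parts, or 7.78%, with an interval of 5.40 to 11.1%. Coding windows outside peaks held one more often, at 12.4%, a difference of -5.99 points with an interval of -8.91 to -0.990. Untranslated windows held one in 10.0% of cases, a difference of -2.22 points whose interval of -4.63 to 1.10 held 0. The shared coding peaks held an SBS hit in 27 of 86 cases, or 31.4%, and the coding members minus these peaks gave -25.0 points, with an interval of -35.8 to -14.8. A hit anywhere in a peak counted, and the shared coding peaks were wider, with a median of 495.5 bp against 333 bp. The part of width in the difference was not tested. Coding peaks found only in untreated cells had the reverse content, with SBS hits in 36 of 49 and CTCF hits in 6 of 49.

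Neither motif was found in 51 coding members and in 134 members in untranslated parts. At the looser threshold of p 5e-05, 13 of these 51 and 18 of these 134 had a CTCF hit. Members without a CTCF hit had lower scores, with a median of 52 against 110 in coding parts and of 46 against 145 in untranslated parts. Ordered by score and cut into 3 groups of 52 peaks, the coding members had a CTCF hit in 44, 38 and 19 peaks, from the highest scores to the lowest. In untranslated parts these groups had one in 111 of 116, 72 of 116 and 19 of 115. Score and CTCF share fell together in both kinds of exon. The score came from the call that chose the members, so this is a description. Whether other classes of peaks show the same was not tested.

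**Figure D2:**
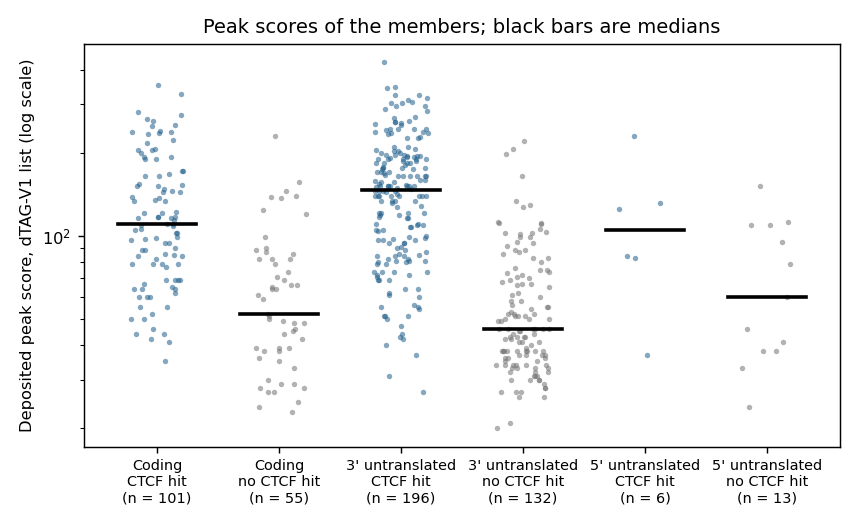
Deposited peak score in the dTAG-V1 list (vertical axis, log scale) of each of the 503 members as 1 point, split by exon part and by whether the peak held a CTCF hit; black bars are medians. In coding parts the medians are 110 with a hit (n = 101) and 52 without (n = 55), and the points of both overlap.

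The motif lay under the summit, the base with the highest signal of a peak. In coding members with a CTCF hit, the median distance from the centre of the best hit to the summit was 18 bp, and 91 of 101 hits lay within 50 bp. In 3′ untranslated parts the median was 16 bp, and 175 of 196 lay within 50 bp. Of the coding members, 11 held 2 or more CTCF hits.

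A coding centre did not always mean a coding motif. The exons were short, with a median length of 167 bp against a median peak width of 333 bp, and 143 of 156 coding members reached past an edge of their exon. Of the 101 best hits in coding members, 61 lay wholly in coding sequence, 11 crossed an exon edge, 27 lay outside the exon and 2 lay in untranslated sequence. The summit was in the exon in 99 of 156 coding members. CTCF hits were found in 66 of these 99 and in 35 of the other 57, shares of 66.7% and 61.4%. In 3′ untranslated parts the exons were long, with a median of 3425 bp, and 292 of 328 peaks lay wholly in the exon, with 189 of 196 best hits in untranslated sequence.

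**Figure D3:**
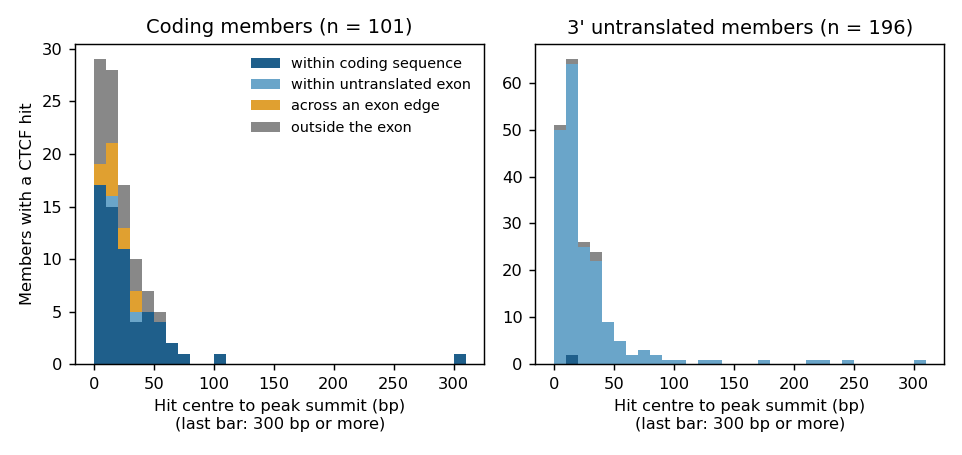
Number of members (vertical axis) by distance in bp from the centre of the best CTCF hit to the peak summit (horizontal axis, bars of 10 bp, the last holding 300 bp or more), for 101 coding members (left) and 196 members in 3′ untranslated parts (right); colours show where the hit lay. Most hits are within 50 bp, and 27 hits of coding members lie outside the exon.

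The highest-scoring coding member was in exon 31 of 49 of MYO7A, the motor protein myosin VIIa of hair cells, at chr11:77191967-77192463 (hg38). Its score was 353, its fold enrichment was 5.81, and its rank in the dTAG-V1 list was 4594. The hit at chr11:77192227-77192245 lay in coding sequence on the sense strand. The member in exon 27 of 32 of HIP1R, an endocytic adaptor, at chr12:122860199-122860647, had a score of 326, and its hit, with a matrix p of 1.20e-09, crossed the edge of the exon. Its centre was also within the window of an annotated transcript start.

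In NTNG1, which encodes the membrane-anchored protein netrin G1, the peak at chr1:107430635-107431064 in exon 6 of 8 had a score of 281. In SPI1, the gene of the blood cell transcription factor PU.1, the peak at chr11:47355285-47355501 in the last of 5 exons had a score of 273, and all of it lay in the exon. In PARP16, an ADP-ribosyltransferase of the endoplasmic reticulum, the peak at chr15:65270785-65271287 in exon 2 of 6 had a score of 265. Its summit was 3 bp from a hit that lay outside the exon. In HDAC9, a class II histone deacetylase, the peak at chr7:18666105-18666458 in exon 12 of 26 had a score of 260. Its hit had a matrix p of 1.41e-09 and lay in coding sequence on the antisense strand. These 6 peaks had their nearest untreated peak between 23328 and 98514 bp away.

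The 4 highest-scoring coding members with neither motif had lower scores. They were in SMOC1, a secreted calcium-binding protein, with a score of 156 at chr14:70013326-70013558, in CPT1B, the muscle carnitine palmitoyltransferase, with 145 at chr22:50576118-50576372, in ANKRD40CL with 139 at chr17:50763151-50763717, and in MMS22L, a replication fork repair protein, with 138 at chr6:97186414-97186824. The coding members with an SBS hit began with CELSR1, a cadherin of planar cell polarity, with a score of 230 at chr22:46367711-46367965. ACP3, prostatic acid phosphatase, followed with 192 at chr3:132352508-132352973 and also held a CTCF hit, 4 bp from its summit. TRAPPC8, a vesicle tethering subunit, had a score of 124 at chr18:31931021-31931824. The centres of the CPT1B, CELSR1 and ACP3 peaks lay within the window of an annotated transcript start.

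In untranslated parts, the highest score was 425, in the last exon of NOX5, a calcium-regulated NADPH oxidase, at chr15:69059071-69059478. The peak centre was 2578 bp after the stop codon, in an untranslated part of 6047 bp. TGFBR2, the type II receptor of TGF-beta, had a score of 347 at chr3:30693312-30693951, and its nearest untreated peak was 284885 bp away. TMC6, a membrane channel-like protein, had a score of 342 at chr17:78112587-78113014, with the strongest hit of these 5, a matrix p of 7.49e-11. MPI, mannose phosphate isomerase, whose exon overlaps one of FAM219B at the peak centre, had a score of 324 at chr15:74901532-74901974. SKAP2, an adaptor of Src family kinases, also had a score of 324, at chr7:26667295-26667916. All 5 had a CTCF hit within 67 bp of the summit, and all 5 peaks lay wholly in the last exon. The centres of the TMC6 and MPI peaks were also within the window of an annotated transcript start.

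There were 9 genes with 2 members each. NT5C1A, a cytosolic nucleotidase, held both members in its last exon, with scores of 244 and 227 at chr1:39658015-39658378 and chr1:39653481-39653850. Both had a CTCF hit on the sense strand, written here to show how alike the pair is.
NT5C1A, 923 bp after the stop codon: cagCCAgcAGGGGGCaCtg
NT5C1A, 5454 bp after the stop codon: ctgCCAgtAGGtGGCaCtg
MBTPS1, the site-1 protease of the SREBP pathway, had scores of 144 and 121 in exons 18 and 10, and ADGRV1, a large adhesion receptor, had 172 and 67 in exons 67 and 71. In both genes each peak held a CTCF hit, but the hits of MBTPS1 exon 10 and ADGRV1 exon 71 lay outside the exon. The centres of the peaks in MBTPS1 exon 10 and ADGRV1 exon 67 were within the window of an annotated transcript start. JMJD1C, a jumonji domain protein, had a score of 206 with a CTCF hit in exon 5 and a score of 33 without one in exon 11. RRP7A, a ribosome assembly factor, had 99 and 69 in its last exon, neither with a CTCF hit.

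The strand and the codon position of the hits were set against 5730 CTCF hits in coding sequence outside the windows and outside all peaks. Hit strength was not matched between the sets. Each coding member gave its best hit, with a median matrix p of 3.01e-07 over 101 hits. Among all coding hits outside the windows, 5317 of 6335 had a matrix p from 1e-06 to 1e-05. Of the 61 hits of coding members wholly in 1 coding exon, 29 had the motif on the sense strand of the gene, or 47.5%, with a Wilson interval of 35.5 to 59.8%. The hits outside peaks also had 47.5%, and the difference was 0.0192 points, with an interval of -12.1 to 12.4. By strand and by the codon position of the first base on the coding strand, 13 hits were sense at position 3 and 13 were antisense at position 1, the 2 most frequent of 6 combinations. Antisense hits at position 1 made up 21.3% in members and 23.2% outside peaks, a difference of -1.85 points with an interval of -10.3 to 10.0. Sense hits at position 3 made up 21.3% and 27.7%, a difference of -6.44 points with an interval of -14.9 to 5.43. On the even-numbered autosomes and X the strand difference was 11.1 points, from -6.93 to 27.0, and that of antisense hits at position 1 was -15.0 points, from -20.3 to 0.115. Sense hits at position 2 were the least frequent in both, with 8.20% and 4.82%.

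**Figure D4:**
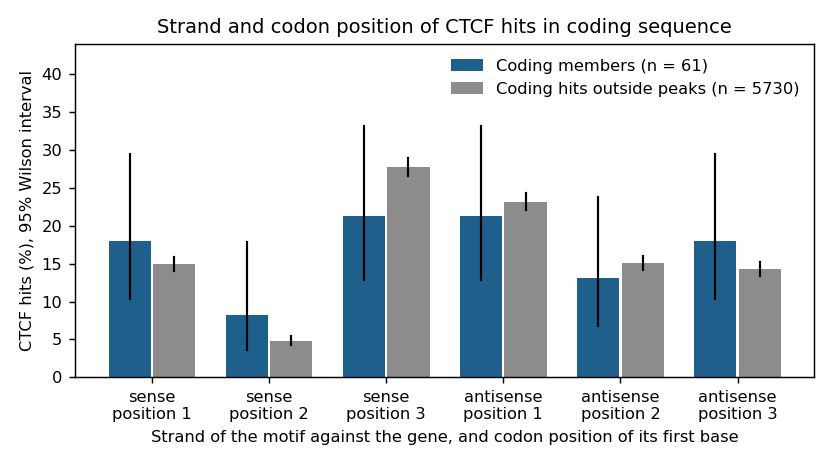
Share of CTCF hits in coding sequence, in percent with 95% Wilson intervals (vertical axis), by strand of the motif against the gene and codon position of the hit's first base on the coding strand (horizontal axis), for 61 hits of coding members (blue) and 5730 hits outside peaks (grey). The intervals of the members hold the grey value in each of the 6 combinations, with sense position 2 lowest in both (8.20% and 4.82%).

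In 3′ untranslated parts, 106 of 196 best hits had the motif on the sense strand, or 54.1%, against 44.8% of 3015 hits outside peaks. The difference was 9.27 points, with an interval of 2.06 to 16.3. Here too the sets were not matched for hit strength. This comparison was chosen after the data were seen, and the interval held 0 with hits at p 5e-05 (6.07 points, -0.660 to 12.7), with hits at p 1e-06 (5.35 points, -3.88 to 14.4) and on the even-numbered autosomes and X (9.42 points, -1.45 to 19.9).

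Seen from the motif, CTCF hits were grouped by their matrix p. In each group, coding hits were less often inside a peak found only with dTAG-V1 than intronic, 3′ untranslated or distal hits. Strength was not matched further within a group. Of the 186 strongest coding hits, with a matrix p of at most 1e-07, 41 were inside one, or 22.04%, against 35.7% of 3039 intronic hits and 41.4% of 191 hits in 3′ untranslated parts. The coding share minus the intronic one was -13.6 points, with an interval of -19.3 to -6.92. The coding share minus that of 3′ untranslated parts was -19.3 points, with an interval of -28.2 to -9.96. Of 4620 distal hits in this group, 32.2% were inside a peak found only with dTAG-V1. On the even-numbered autosomes and X the difference from introns was -6.08 points, and its interval of -15.2 to 4.69 held 0. Among the hits of middle strength the coding share was 5.53% and the intronic one 14.2%, and among the weakest they were 0.959% and 2.19%. In the shared peaks the order was the same for the strongest hits, with 5.38% of coding and 12.4% of intronic hits. These comparisons were also chosen after the data were seen. They rest on the call that chose the members, so the shares are given as a description.

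**Figure D5:**
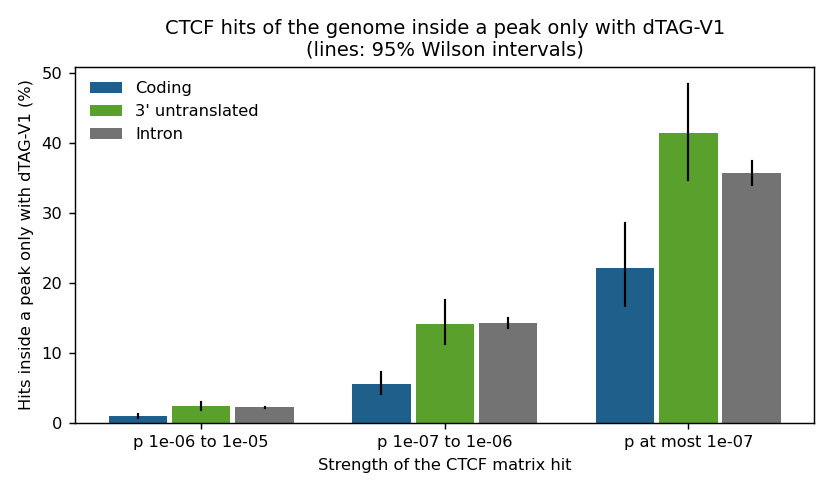
Share of all CTCF matrix hits of the genome that lie inside a peak found only with dTAG-V1, in percent (vertical axis) with 95% Wilson intervals as lines, by strength of the hit (horizontal axis) for coding sequence, 3′ untranslated parts and introns outside the windows. The coding bars are lower than the intronic ones at each strength, with 22.04% against 35.7% for the strongest hits.

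The position along the gene was also described. Of 156 coding members, 23 lay in the last coding exon, or 14.7%, with an interval of 10.0 to 21.2%. Last coding exons made up 20.0% of the coding bases outside the windows. With the summit in place of the centre the share of members was 10.7%, with an interval of 6.94 to 16.1%. At a −log10 q of at least 5 it was 15.2%, from 9.95 to 22.5%. With windows around every transcript start it was 21.0%, from 14.2 to 30.0%, and the share of bases for those windows was not computed. Exon 1 held 3 coding members. In 3′ untranslated parts the median centre was 1409 bp after the stop codon and 53.5% along the untranslated part. Cut into 4 equal stretches from the stop codon to the transcript end, the untranslated parts held 73, 80, 80 and 95 members. The GC content within 100 bp of the summit had a median of 46.0% in coding members and 57.0% in shared coding peaks. At the centres of coding windows outside peaks it was 49.3%. Members in 3′ untranslated parts had a median of 43.8%, against 40.8% at the centres of untranslated windows outside peaks. Intronic peaks found only with dTAG-V1 had 41.3%.

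The windows that kept promoters out were drawn from gene starts, and other transcripts of a gene start elsewhere. The centre of 56 coding members, or 35.9%, lay within the same distances of the start of some annotated transcript, beside 31.0% of the coding windows outside peaks. In untranslated parts this was 39 members, or 11.2%, beside 6.59% of windows, and 16 of these 39 were among the 19 members in 5′ untranslated parts. With windows around every transcript start for all peaks, a choice made after seeing the data, 100 coding members remained, 69 of them, or 69.0%, with a CTCF hit, and the difference from intronic peaks was 21.4 points, with an interval of 11.7 to 29.7.

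At the edge of the rule, the members nearest to an untreated peak were in HFE, the hemochromatosis protein, 150 bp away with a score of 187, and in EXTL1, a glycosyltransferase of heparan sulfate, 169 bp away with a score of 139. Just outside it, peaks in SLC30A8 and NDUFAF5 overlapped an untreated peak by 69 and 72 bp, with scores of 50 and 80. The centre of the member in EPS15L1, an endocytic protein, was 8 bp outside a promoter window, with a score of 108, and that in TRIM31, a ubiquitin ligase, was 22 bp outside, with a score of 206. The lowest scores were 20 in KIAA1522 and 21 in NIT2. The median distance to the nearest untreated peak was 22481 bp, and 11 of 503 members had one within 1000 bp.

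Each gene group listed held at most 10 members, and the shares differed between the groups. The 494 genes with a member were 2.59% of the 19083 protein-coding genes with exon sequence outside the windows. Of 602 C2H2 zinc finger genes, 10 held a member, or 1.66%, led by ZBTB39 with a score of 121, ZNF652 with 112 and ZNF774 with 102. One of these 10 was ZNF143 itself, named after its value was seen, with a peak in its last exon at chr11:9528003-9528698, a score of 58, no hit of either motif and an untreated peak 329 bp away.

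Of 34 genes of chromatin modifiers, 3 held a member, or 8.82%. EHMT2, a histone H3 lysine methyltransferase, had a score of 189, and the methyltransferases KMT2A and KMT2D had 154 and 55, each of the 3 with a CTCF hit. The EHMT2 hit lay outside the exon. Of 15 genes of CTCF and cohesin, 2 held a member, or 13.3%. These were the cohesin regulator PDS5A with a score of 38 and the cohesin subunit RAD21 with 35, neither with a CTCF hit. There was 1 member each among 33 HOX genes (3.03%, HOXB7, score 112), 65 genes of cytosolic ribosomal proteins (1.54%, RPS14, 86), 72 of mitochondrial ribosomal proteins (1.39%, MRPL50, 81) and 68 of axon guidance (1.47%, UNC5C, 157). Clustered protocadherins, collagens, histone genes and highly transcribed housekeeping genes, with 50, 44, 5 and 28 genes, held none. The centres of the ZNF652, EHMT2, KMT2D, RAD21 and HOXB7 peaks were within the window of an annotated transcript start.

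A larger share of the members' genes than of all genes had a peak at the gene's own start. In the dTAG-V1 list, 235 of 494, or 47.6%, had a peak centre in their own window, beside 39.2% of 19970 protein-coding genes. In the untreated list the shares were 39.3% and 33.5%. The 19970 genes are all protein-coding genes, while only 19083 had exon sequence outside the windows and could hold a member. The share over those genes alone was not computed. Gene length and expression were not matched between the 2 sets, and the part of either in the difference was not tested.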

How the data were processed

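The authors aligned reads to hg38 with bwa mem, kept proper pairs above a mapping quality limit with SAMtools, marked duplicates with Picard and called narrow peaks with MACS2. Whether their replicate filter, stricter for untreated cells (all 4 replicates) than for dTAG-V1 (any 1 of 4), was applied to the deposited lists is not given in the sources used here, and no control library is named. Read by column position and by the values, the authors deposited for each peak a score, a fold enrichment ratio and a −log10 q-value. The score was 10 times the −log10 q, rounded down, in 55710 of 55716 deposited peaks, and the lowest −log10 q was 2.01. The lists hold no counts, so depth is unknown.

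Genes came from GENCODE release 44 (hg38). Matrices of 19 positions for CTCF, SBS1 and SBS2 were learned on peaks of odd-numbered autosomes that were not members (10 rounds, p 1e-06), starting from short consensus patterns with at most 2 mismatches. Both strands were searched. Their consensus letters at 50% or more were nnnCCACnAGGGGGCnCnn for CTCF, nTTCCCAGnATnCnCTGCn for SBS1 and ACTACATTTCCCAGnnTnC for SBS2, and SBS1 and SBS2 overlap each other in part. A hit is a match of letters at p 1e-05 under the genome's base frequencies, counted when it overlapped a peak by 1 bp or more. Shares have 95% Wilson and differences 95% Newcombe intervals. No p-value across peaks was computed, since each condition had 1 list. Scripts were tested on simulated data and used Python, numpy, numba, pandas and statsmodels.

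Members named are the 6 coding ones with the highest score and a CTCF hit, 4 with neither motif, 3 with an SBS hit, 5 in untranslated parts, the 5 genes with most members, those at the rule's edges and up to 3 per gene list. The members and lists were chosen with earlier results of these data known.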

Additional observations from a re-analysis of the deposited data

How the results depend on the processing

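No paired analysis was possible because each condition had 1 peak list with no column per replicate, and for the same reason no replicate could be left out. Of 108 alternative values, 76 kept their direction and call or stayed within the main interval. The numbers of members stayed within 1.5 times the main ones, from 125 to 178 coding and from 261 to 395 untranslated, under the 4 settings tried first for them. With windows around every transcript start, chosen after seeing the data, 100 coding members remained.

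CTCF shares of coding and untranslated members moved to 76.0% and 73.9% at a −log10 q of at least 5, to 74.4% and 64.3% with hits at p 5e-05, to 47.4% and 43.2% at p 1e-06, to 56.8% and 52.4% on even-numbered autosomes and X, and to 12.2% and 10.95% with a fixed pattern. SBS shares moved to 29.5% and 27.7% at p 5e-05, to 1.28% and 1.15% at p 1e-06 and to 0% in both with the fixed pattern, where the intervals reached 2.40% and 1.09%. Within 100 bp of the summit the coding and untranslated SBS shares were 3.85% and 4.32%, and on even-numbered autosomes and X the coding one was 3.70%.

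The CTCF difference of coding and untranslated members gained a call at p 5e-05, at 10.1 points. Coding minus intronic peaks lost its call on even-numbered autosomes and X, at 9.97 points, as did untranslated minus intronic peaks, at 5.57. Coding minus shared coding peaks lost it there at 6.79, with 50% overlap at 13.5 and with the fixed pattern at 4.04. The even-numbered set holds fewer peaks, and none of them was used to learn the matrices. No cause of the lower values there was tested. The strand difference of coding hits, near 0, changed sign at a −log10 q of at least 5 (-0.249), at p 5e-05 (-1.35) and within 100 bp of the summit (-0.855), and the codon position difference did so at a −log10 q of at least 5 (0.478). Their largest moves were on even-numbered autosomes and X, to 11.1 and -15.0 points, and both intervals held 0.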
